A study of Mus musculus with 4 samples.

Results

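Kidney genes were followed in the livers of mouse fetuses from dams fed a control diet (CD) or a high-fat diet (HFD). The 9 genes were the kidney cadherin Cdh16, the transcription factors Wt1, Six2, Lhx1, Pax8 and Pax2, the podocyte gene Nphs1, the water channel Aqp2 and the tubule protein gene Umod. They were taken from the 22911 genes with a symbol on the array, and all of their 14 probes among 56605 were read. Cdh16 was picked by its difference between the diets in these same arrays and the others were grouped with it with the results known, so that the differences of all 9 genes between the diets are a description and carry no test.

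Livers were taken at 14.5 days post coitum (dpc) and profiled on 4 single-color Agilent arrays, 2 for each diet. The dams were C57BL/6J mice that received the CD, with 4.3% of its energy as fat, 19.2% as protein and 67.3% as carbohydrate, or the HFD, with 60% as fat, 20% as protein and 20% as carbohydrate, in gestation. The labels give female as the sex and call the 2 arrays of each diet biological replicates. Whether that is the sex of the fetuses or of the dams is not stated. The numbers of dams and fetuses behind each array are not given in the sources used here, so the p-values below measure the spread between these arrays only. The study's text names fetal livers as the material, while a figure legend names hepatocytes of the fetuses. In such RNA, more cells of a type and more RNA per cell cannot be told apart.

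One slide held all 4 arrays and 1 scan read them, with a median intensity between 70.2 and 120.5 and between 65.4% and 70.0% of spots well above background. The level of a probe is its intensity on a log2 scale relative to the 75th percentile of all non-control probes on the same array, so a level of 0 lies at that percentile. A level between -6.02 and -5.57, depending on the array, was the lowest at which a probe was well above background. The CD arrays stood farther apart than any other pair of arrays. The SD of their log2 differences over 41614 tested probes was 0.60, against 0.37 between the HFD arrays and 0.44 to 0.54 between a CD and an HFD array. All 8 hepatoblast markers were well above background on every array, among them albumin (Alb), at levels of 8.14 and 9.06 under CD and 8.53 and 8.54 under HFD, and alpha-fetoprotein (Afp), at 8.32, 8.82, 8.49 and 8.63.

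The mammalian kidney forms from the intermediate mesoderm, where Pax2, Pax8 and Lhx1 act early in the nephric duct and the nephron precursors. Six2 keeps nephron progenitors from differentiating, and Wt1 acts in those progenitors and again in podocytes, the filtering cells of the glomerulus. Cdh16 encodes a cadherin of the tubule epithelium, Nphs1 encodes nephrin of the podocyte slit diaphragm, Aqp2 encodes the vasopressin-regulated water channel of the collecting duct, and Umod encodes uromodulin, which is secreted by the thick ascending limb of the loop of Henle. Several of these genes have sites of expression outside the kidney. Wt1 is found in mesothelium and gonads, Pax8 and Cdh16 in thyroid, and Pax2 and Lhx1 in the nervous system.

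The stretch of 250 bases before the start of transcription was available from RefSeq (GRCm38.p6) for 7 of the 9 genes, in 9 windows, 3 of them for Pax2. Pax8 and Lhx1 are shown because, like Cdh16, they were at least 1 log2 unit higher on HFD replicate 2 than on the other HFD array, and Umod because it was not detected. Capitals mark a motif, either the HNF1 half-site (GTTAAT, or ATTAAC on the other strand) or the CRE half-site (TGACG, or CGTCA). Each sequence runs 5′ to 3′ on the strand of its gene. Pax8 covers chr2:24475600-24475849, Lhx1 covers chr11:84525535-84525784 and Umod covers chr7:119479263-119479512, all on the minus strand.
Pax8: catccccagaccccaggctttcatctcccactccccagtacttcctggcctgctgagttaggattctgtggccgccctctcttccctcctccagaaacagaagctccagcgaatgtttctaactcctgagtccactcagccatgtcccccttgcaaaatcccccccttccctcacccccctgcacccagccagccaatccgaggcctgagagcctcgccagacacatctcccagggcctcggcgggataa
Lhx1: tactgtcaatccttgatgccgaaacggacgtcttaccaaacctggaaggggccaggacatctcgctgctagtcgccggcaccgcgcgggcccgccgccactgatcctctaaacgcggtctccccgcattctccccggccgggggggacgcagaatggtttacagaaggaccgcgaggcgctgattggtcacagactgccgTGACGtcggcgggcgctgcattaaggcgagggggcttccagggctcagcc
Umod: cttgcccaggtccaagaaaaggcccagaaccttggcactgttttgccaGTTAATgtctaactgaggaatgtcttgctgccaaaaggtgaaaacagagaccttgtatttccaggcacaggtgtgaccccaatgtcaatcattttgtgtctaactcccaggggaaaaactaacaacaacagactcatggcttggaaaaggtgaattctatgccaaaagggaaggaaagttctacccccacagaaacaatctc
The Umod window held an HNF1 half-site 202 bases before the start, and the Lhx1 window held a CRE half-site 50 bases before the start. A CRE half-site also lay in the Aqp2 window, 211 bases before the start and on the opposite strand. The windows of Pax8, Six2, Nphs1 and Pax2 held neither. A TATA box (TATAAA, or TTTATA) was found in none of the 9 windows. The same searches in 32851 promoter windows found the HNF1 half-site in 6.43%, the CRE half-site in 17.8% and the TATA box in 12.4%.

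The transcription factors Wt1 and Six2 were clearly detected in all livers. Wt1 had levels of 1.84 and 0.68 under CD and of 2.07 and 1.86 under HFD (intensities of 3848, 1132, 4062 and 3293). Both HFD arrays lay above both CD arrays, but HFD replicate 2 exceeded CD replicate 1 by only 0.014 and HFD replicate 1 exceeded it by 0.22. The HFD mean was 0.70 above the CD mean on the log2 scale (SE 0.43), or 1.62-fold. Without CD replicate 2 the difference was 0.12. Six2 had levels of 1.18 and 0.26 under CD and of 0.88 and 0.44 under HFD, so the groups overlapped. Its mean difference was -0.06 (SE 0.38), and this value changed sign when CD replicate 1 or HFD replicate 2 was left out.

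Lhx1 and Pax8 stood out on 1 array. Lhx1, which is needed for the nephric duct and for nephron formation, had levels of -2.57 and -3.57 under CD and of -2.79 and -1.60 under HFD. HFD replicate 2 was the highest and HFD replicate 1 lay between the CD arrays. The group means differed by 0.87 (SE 0.55), and by 0.28 to 1.47 when 1 array was left out, lowest without HFD replicate 2. Pax8, a paired-box factor of the early nephron, had levels of -3.71 and -4.13 under CD and of -3.82 and -2.12 under HFD. Again only HFD replicate 2 lay above the CD arrays, and the mean difference of 0.95 (SE 0.61) was 0.10 without it and 1.80 without HFD replicate 1. The second Pax8 probe was not well above background on any array.

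Pax2, the partner of Pax8 in the intermediate mesoderm, had the same order of the HFD arrays but the opposite order of the CD arrays. The brightest Pax2 probe had levels of -2.20 and -1.001 under CD and of -2.47 and -1.61 under HFD. CD replicate 2, the array on which Pax8, Lhx1, Wt1 and Six2 were lowest, was the highest for Pax2. The groups overlapped, with a mean difference of -0.44 (SE 0.52). Leaving out CD replicate 2 gave 0.16, and leaving out CD replicate 1 gave -1.04. The other 2 Pax2 probes were never well above background.

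Cdh16 had the largest difference between the diets among the 9 genes, the value it was chosen by. Its brighter probe (probe A) had intensities of 361 and 74.6 under CD and of 531 and 1086 under HFD, and levels of -1.57, -3.24, -0.87 and 0.26. Both HFD arrays lay above both CD arrays. The group means were -2.40 ± 1.18 (SD, n = 2) for CD and -0.31 ± 0.80 (SD, n = 2) for HFD, a difference of 2.10 (SE 0.69), or 4.28-fold. The arrays within each diet also stood well apart, with HFD replicate 2 higher than HFD replicate 1 by 1.13 and CD replicate 1 higher than CD replicate 2 by 1.67. Leaving out CD replicate 2 brought the difference to 1.27.

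The second Cdh16 probe (probe B), which is matched to another Cdh16 transcript, did not show this pattern. It was well above background on all 4 arrays, with intensities of 177 and 104 under CD and of 149 and 161 under HFD, and its levels of -2.60, -2.76, -2.70 and -2.50 overlapped between the diets. The difference was 0.08 (SE 0.18), beside 2.10 for probe A. The 2 probes read different transcript records of 1 gene, and which of them follows the amount of Cdh16 RNA was not tested.

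**Figure D1:**
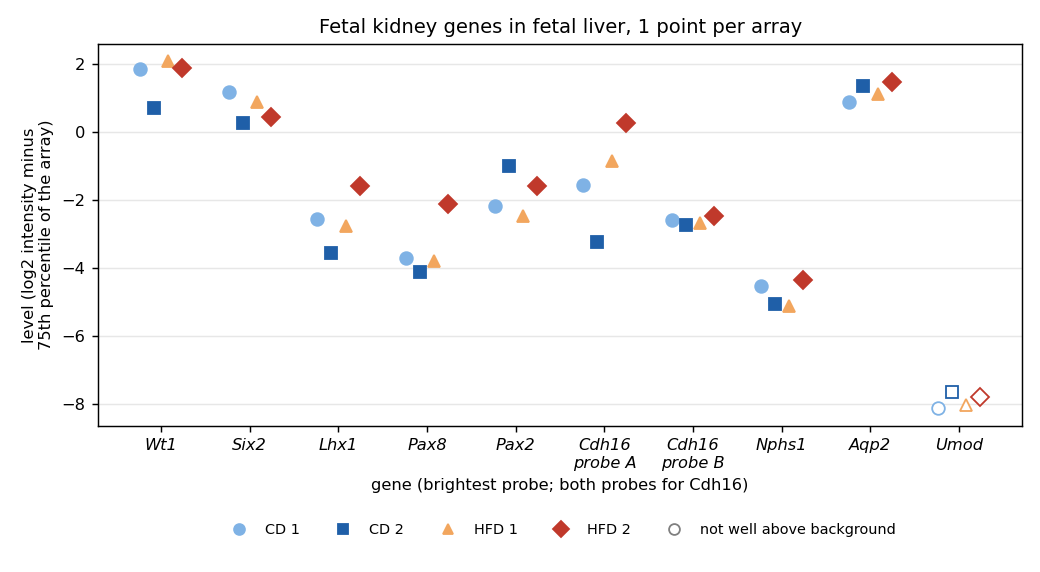
Levels of the 9 kidney genes on each array (y axis, log2 intensity minus the 75th percentile of the array; x axis, gene), with 1 point per array, the brightest probe of each gene and both Cdh16 probes; open points were not well above background. Cdh16 probe A lies at -3.24 on CD replicate 2 and at 0.26 on HFD replicate 2, whereas all probe B points lie between -2.76 and -2.50.

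The differentiated genes of the nephron were mixed. Nphs1 was dim, with intensities between 20.9 and 45.8 at its brighter probe, and its levels of -4.55 and -5.07 under CD overlapped those of -5.13 and -4.37 under HFD. Its difference was 0.06 (SE 0.35) and took the opposite sign under another background correction and without CD replicate 2 or HFD replicate 2. The second Nphs1 probe was not well above background on any array. Aqp2 was bright, with levels of 0.88 and 1.33 under CD and of 1.11 and 1.46 under HFD. Its diets also overlapped, with a difference of 0.18 (SE 0.25). Umod had intensities between 3.51 and 4.07 and was never well above background, so no fold is given for it. Uromodulin is a product of the mature thick ascending limb.

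Of the 9 genes, 8 had a brightest probe well above background on all 4 arrays and passed the filters on dim and variable probes. Of these 8 genes, 6 had a difference above 0 between the diets and their median was 0.44, but the groups overlapped for all except Cdh16 and Wt1. The median was 0.13 without HFD replicate 2, 0.27 without CD replicate 2 and 0.78 without CD replicate 1. Over all 18344 tested genes 57.5% had a difference above 0 and the median was 0.04. Both HFD arrays lay above both CD arrays for 22.9% of all tested genes and below them for 10.2%. With cutoffs of 0.05 for the unadjusted p and 2-fold for the difference, 0.283% of the genes were higher and 0.583% lower by limma, which at the level of probes was 0.284% and 0.526%. Cdh16 is 1 of the 52 higher genes by choice, and nothing is read from that. After Benjamini-Hochberg adjustment limma called 0 of 41614 probes (0.0%, smallest adjusted p = 1.00), while 1372 probes had an unadjusted p under 0.05. The methods' t-test also called 0 after adjustment.

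Arrays of the same diet also differed in these genes. HFD replicate 2 exceeded HFD replicate 1 by 1.69 for Pax8, 1.19 for Lhx1, 1.13 for Cdh16, 0.87 for Pax2 and 0.76 for Nphs1. These 5 values lay above the 95th percentile of all genes, which was 0.56, and between 97.0% and 99.6% of genes had a smaller value. The comparison was not matched for brightness, and Nphs1 was dim, with intensities between 20.9 and 45.8. Aqp2 was higher by 0.35, Wt1 lower by 0.21 and Six2 lower by 0.44. In the CD group, replicate 1 exceeded replicate 2 by 1.67 for Cdh16, 1.16 for Wt1, 1.00 for Lhx1, 0.92 for Six2, 0.52 for Nphs1 and 0.42 for Pax8. Pax2 and Aqp2 had the opposite order, with values of -1.20 and -0.45, and 1.02% of genes had a lower value than Pax2. With 1 array on each side these differences have no replicate check.

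**Figure D2:**
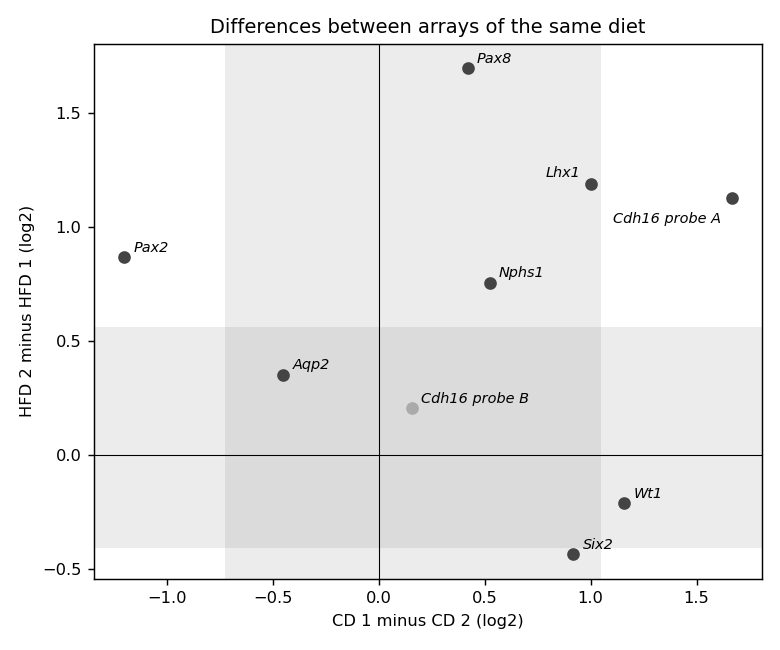
Difference between the 2 CD arrays (x axis, log2) and between the 2 HFD arrays (y axis, log2) for each tested kidney gene, with Cdh16 probe B in light grey; the shaded bands span the 5th to 95th percentile of all 18344 tested genes. Cdh16 probe A lies outside both bands at 1.67 and 1.13, and Pax2 lies outside both on the other side of the CD axis at -1.20 and 0.87.

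The genes whose profile over the 4 arrays lay nearest to that of Cdh16 probe A were sought by the Euclidean distance between centered levels, among 16935 genes well above background on both HFD arrays, with no demand on the CD arrays. The nearest was Cyp11a1, which encodes the first enzyme of steroid hormone synthesis, at a distance of 0.43. Its levels were -1.56 and -2.78 under CD and -0.72 and 0.13 under HFD. A probe named Ren2 lay at 0.59. Ren2 is a near-identical copy of the renin gene Ren1, so the transcript behind that probe is uncertain. Its levels were 0.87 and -1.42 under CD and 0.81 and 2.06 under HFD. The difference between the diets at that probe was 1.71, beside 1.02 at the Ren1 probe. Which probe follows the amount of renin RNA was not tested. Gldn, Klhl14 and Sprr2f completed the nearest 5, but Gldn and Sprr2f were well above background on 2 arrays and Klhl14 on 3, so their distances rest on CD levels that were not measured above background and are not given. Of the other kidney genes, Lhx1 ranked at 32 with a distance of 1.31, Pax8 at 65 and Wt1 at 166, while Nphs1 ranked at 1512, Six2 at 7256, Aqp2 at 7627 and Pax2 at 16749. The ranks count such dim candidates too, and they describe these 4 arrays only. Cdh16 was chosen for its difference between the diets, so a near profile in part repeats that choice and nothing is read from it. Cyp11a1, Gldn and Sprr2f are in the study's own list of higher genes from these arrays.

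A wider list of 58 other kidney genes, written from general knowledge with earlier results of these data known, was read in the same way. The array held all 58. Of these, 44 were well above background on every array and 8 on none, and 50 were tested. One gene passed an unadjusted p of 0.05 and 2-fold, and 0 genes passed after adjustment. That is 2% of the list and higher under HFD, beside 0.283% of all genes higher and 0.583% lower. The share of tested genes with both HFD arrays above both CD arrays was 22%, beside 22.9% of all genes, and the share with both below was 4%, beside 10.2%. A difference above 0 was found for 74% of the list and 57.5% of all genes, and the medians were 0.25 and 0.04. The median of the list was 0.41 without CD replicate 1.

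**Figure D3:**
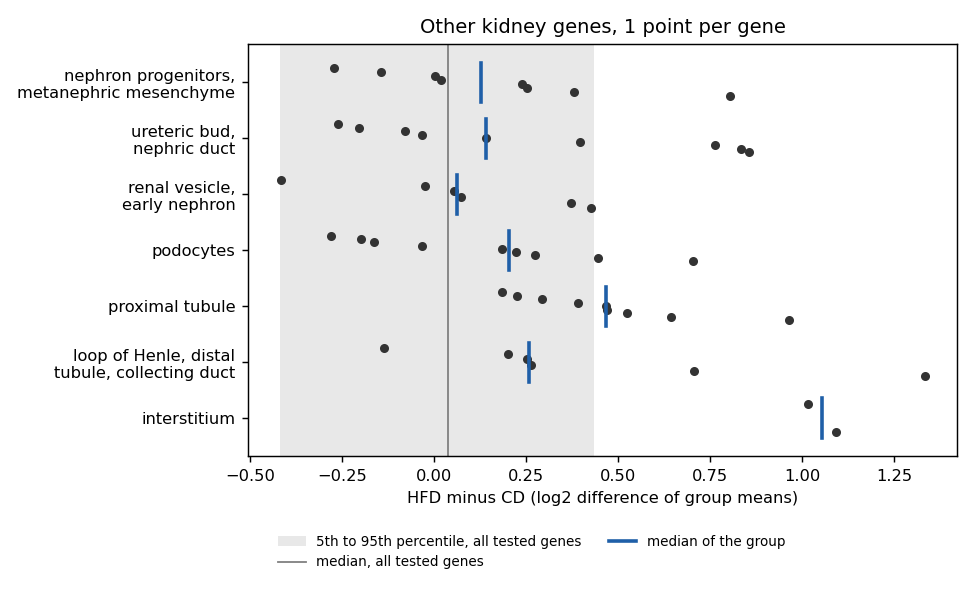
Difference between the diets (x axis, HFD minus CD, log2 of group means) for each tested gene of the wider kidney list except the 1 past the cutoffs, by segment or lineage (y axis); blue bars are group medians over all tested genes of a group, and the grey line and band are the median and the 5th to 95th percentile of all tested genes. The proximal tubule genes all lie above 0, with a median of 0.47.

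Nephron progenitor genes had a median difference of 0.13 over 8 tested genes, with Six2's companions Eya1 and Cited1 at 0.25 and 0.00, and none passed the cutoffs. Eya1, at levels of 6.37, 6.44, 6.71 and 6.61, and Cited1, at 4.36, 5.08, 4.76 and 4.69, were far brighter than Six2. Where their signal in the liver comes from was not tested. Osr1, an early marker of the intermediate mesoderm, had the lowest value of this group at -0.27 (SE 0.32). The median of the group was -0.22 without CD replicate 2. Ureteric bud and nephric duct genes had a median of 0.14 over 9 genes, which was -0.38 without CD replicate 2, -0.10 without HFD replicate 2, 0.46 without CD replicate 1 and 0.48 without HFD replicate 1. All 9 were higher on CD replicate 1 than on the other CD array, as Lhx1 and Pax8 were, and 8 were higher on HFD replicate 2 than on the other HFD array, beside 44.7% and 42.7% of all genes. Renal vesicle genes had a median of 0.06 over 6 genes, or -0.24 when CD replicate 2 was left out and 0.45 when CD replicate 1 was, and Irx1, a factor of the developing nephron, was at -0.42 (SE 0.66). In podocytes the median was 0.20 over 10 genes, or 0.43 without CD replicate 1, and the foot-process gene Synpo was at -0.28 (SE 0.30).

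Proximal tubule genes had a median difference of 0.47, and all 9 tested genes lay above 0, beside 57.5% of all genes. The median was 0.14 without CD replicate 1 and 0.16 without HFD replicate 1. Both HFD arrays exceeded both CD arrays for 5 of the 9, beside 22.9% of all genes. Slc22a6, an organic anion transporter, had levels of -4.95 and -4.56 under CD and of -3.46 and -4.12 under HFD, a difference of 0.96 (SE 0.30, limma, unadjusted p = 0.029, adjusted p = 1.00) that stayed under 2-fold. Its unadjusted p from limma was 0.0127 without HFD replicate 2 and between 0.0599 and 0.174 without each of the other arrays. Unlike the ureteric genes, only 1 of the 9 was higher on CD replicate 1 than on the other CD array and 2 were higher on HFD replicate 2 than on the other HFD array. The difference between these orders was not tested. Interstitial genes were Foxd1, a stromal progenitor factor, with a difference of 1.09 (SE 0.78), and Ren1, with 1.02 (SE 0.58), and both had overlapping groups. When 1 array was left out, Foxd1 ranged from 0.21 to 1.97 and Ren1 from 0.36 to 1.67, each lowest without CD replicate 2 and highest without CD replicate 1. Ren1 had levels of -2.91 and -4.22 under CD and of -3.06 and -2.05 under HFD, the same order of arrays as Lhx1 and Pax8. Genes of the loop of Henle, distal tubule and collecting duct had a median of 0.26 over 6 of 12 genes, or 0.14 without HFD replicate 2. The other 6, among them the salt transporters Slc12a1 and Slc12a3 of the segments that follow on from the proximal tubule, were never well above background, like Umod.

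Markers of the tissues next to the kidney varied across the same arrays. The 9 adrenal cortex markers were all tested and all had a difference above 0, beside 57.5% of all genes. Their median was 0.70. The median was 0.41 without HFD replicate 2, 1.08 without CD replicate 1 and 1.18 without HFD replicate 1. The summed linear level of these markers was 19.5 and 19.1 under CD and 25.2 and 36.1 under HFD, highest on the array where Cdh16, Lhx1 and Pax8 were highest. Both HFD arrays lay above both CD arrays for 4 of the 9 markers (44.4%), beside 22.9% of all genes. Star, at levels of -1.75, -2.88, -1.90 and 0.02, and Cyp21a1, at 0.40, 0.11, 0.15 and 2.24, were lower on HFD replicate 1 than on CD replicate 1. Cyp11a1 was the 1 adrenal marker past the cutoffs, at 1.87 (SE 0.52), and its difference was 1.27 without CD replicate 2. It is in the study's own list of higher genes from these arrays, so its passing was known beforehand and it gets no p. Cyp11b1, the enzyme of the last step of glucocorticoid synthesis, had levels of -1.13 and -4.18 under CD and of -4.99 and 1.08 under HFD. The 2 brightest markers of the list, which carry most of its sum, were Cyp17a1, at levels of 2.99, 2.17, 3.26 and 3.46, and Mrap, at 2.65, 3.16, 3.34 and 3.38. Chromaffin and sympathetic markers, 7 of 7 well above background on every array, summed to 12.8 and 4.95 under CD and to 4.21 and 10.9 under HFD, high on the replicate of each diet that was also the higher one for Cdh16. Among the brightest was Chga, at 1.62, 0.21, 0.12 and 1.76.

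Gonad somatic cell markers had a median difference of 0.70 over 8 tested of 9, which was 0.17 without CD replicate 2, 0.42 without HFD replicate 1 and 1.13 without CD replicate 1. Centered on their mean over the arrays their median level was 0.03 and -0.74 under CD and 0.38 and 0.16 under HFD, an order like that of Wt1 rather than of Cdh16. Nr5a1, a steroidogenic factor of gonad and adrenal, was past the cutoffs at 1.20 (SE 0.31, limma, unadjusted p = 0.0144, adjusted p = 1.00). It did not pass without CD replicate 2, at 0.90, or without HFD replicate 2, at 0.94. Amh was well above background on 1 array. The summed linear level of the list was 26.6 and 44.3 under CD and 27.7 and 30.5 under HFD. That sum is carried by Foxl2, which had levels of 4.45 and 5.38 under CD and of 4.51 and 4.69 under HFD. Markers of the mesothelium, where Wt1 is also expressed, had a median difference of 0.06, or -0.11 without CD replicate 2, and all 6 were well above background on every array. They summed to 6.24, 4.48, 4.96 and 6.49, a sum carried by Aldh1a2, at levels of 2.11, 1.46, 1.58 and 2.23. Centered on the mean over the arrays, the median level of the mesothelium list was 0.13 and -0.08 under CD and 0.09 and -0.02 under HFD. Of 4 thyroid markers, 3 were never well above background and Tg differed by -0.09. The part of adrenal, gonad and mesothelial RNA in the levels of the kidney genes was not tested.

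Hepatoblast markers had a median difference of -0.00, or 0.39 when CD replicate 2 was left out and -0.19 when CD replicate 1 was. They summed to 928 and 1416 under CD and to 1115 and 1139 under HFD, lowest on CD replicate 1. Erythroid markers, led by Hba-a1 and Slc4a1, had a median of 0.16 (0.04 without CD replicate 1 and 0.34 without CD replicate 2) and summed to between 889 and 1218, again lowest on CD replicate 1. Both orders depend on the scaling, with 75th percentiles of 1073 on CD replicate 1 and 704 on CD replicate 2. Hba-a1 had intensities of 578867, 568915, 579551 and 584714, nearly the same on all arrays. Afp was brighter on CD replicate 1 (341843) than on CD replicate 2 (319208), and Alb was dimmer (303378 and 376933). Some markers of other organs were lower under HFD. Trophoblast markers, with Tpbpa at levels of 3.01, 4.80, 1.00 and -1.01, had 7 of 8 tested past the cutoffs and lower, beside 0.583% of all genes. Tpbpa, Prl8a8, Prl8a6, Psg18 and Ceacam11 are in the study's own list of lower genes, so this count was in part known beforehand. Lung markers had 3 of 4 past them and lower, of which Sftpb and Nkx2-1 were not well above background under HFD, while the other one, Scgb1a1, was at 0.43. Neuronal markers had a median of -0.81, which was -0.50 without CD replicate 1 and -0.48 without HFD replicate 1, and none passed the cutoffs. Gut and pancreas markers had a median of 0.14, or -0.17 without CD replicate 2. The summed trophoblast level was 13.1 and 48.6 under CD and 3.05 and 0.88 under HFD, so that the array lowest for Cdh16, Lhx1, Pax8 and Wt1 was the highest for trophoblast markers. Among the chosen genes that were detected, Pax2 was the one highest on that array too.

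**Figure D4:**
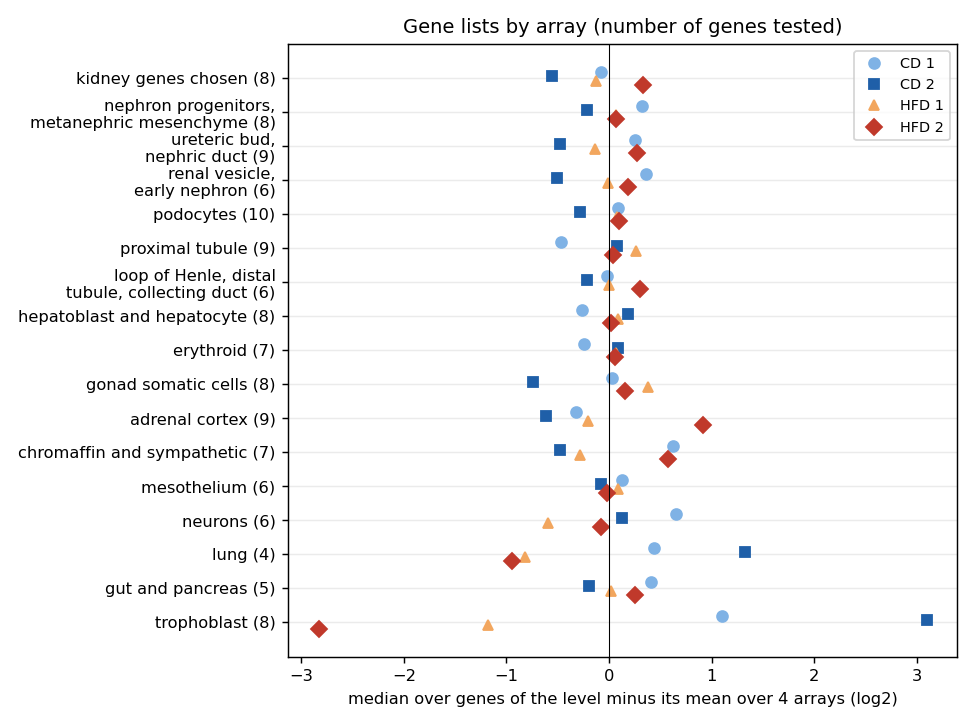
Median over the tested genes of each list of the level minus the gene's mean over the 4 arrays (x axis, log2), with 1 point per array and the number of tested genes beside each list name (y axis). The chosen kidney genes run from -0.56 on CD replicate 2 to 0.34 on HFD replicate 2, and adrenal cortex markers from -0.61 to 0.91 on the same arrays.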

How the data were processed

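The labels gave the groups and replicate numbers, and the study's methods gave age and array methods. The authors hybridized Cy3-labeled cRNA and read the image with Agilent Feature Extraction 11.0.1.1. The deposited intensity of each spot was background-subtracted and detrended but not scaled between arrays. The deposited files also hold the median signal of each spot and of its background, and scores of 0 or 1 that flag outlier spots, saturated spots and spots well above background. A deposited table of normalized signal for 41471 probes equals the intensity divided by 1 constant per array, within 0.1% for 100% of the 41171 probes with 1 spot (column medians between 0.276 and 0.305). Its scale is linear and it is not centered by gene.

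Spots with an outlier flag were left out (39 to 58 per array, with 0 saturated) and spots of a probe were averaged as log2 values before scaling to the 75th percentile. Of 56596 usable probes, 14980 that lay under the 20th percentile somewhere and 2 with a CV of the log2 signal over 50% in both diets were left out, and 41614 were tested with limma 3.58.1 in R 4.3.3 (HFD minus CD, 4 arrays, no covariates). The number of arrays limits the precision. Probes were named through their transcripts from RefSeq genes of GRCm38.p6, which gave 32994 of 56605 probes 1 of 22911 symbols. The array was designed on another build, so no probe positions are given. The brightest probe stands for a gene. Tables and plots were made with pandas 2.3.3, numpy 2.4.6 and matplotlib 3.10.9 in Python 3.11.15, and the fit was tested on simulated data.

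The kidney genes and all lists were chosen with earlier results of these data known. The text names the 9 genes, genes of the wider kidney list past the cutoffs, the 3 in each direction with the largest difference among those detected on both arrays of the higher diet, the 5 profiles nearest to Cdh16 and the leading markers of the other tissues. Slc22a6, Eya1, Cited1, Slc12a1, Slc12a3 and markers such as Cyp11b1 were named after their values were seen. Some genes under this rule are not reported here. As alternatives, the deposited table, normexp and quantile normalization were run, as were a signal floor, other filters on dim probes, a linear CV, all spots, 1 probe per gene, the mean over probes, the methods' t-test, the replicate block and leaving out each array. Normexp used the median brightness, as no column used here holds the mean.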

Additional observations from a re-analysis of the deposited data

How the results depend on the processing

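The Cdh16 difference of 2.10 was 1.09 as the mean of both probes and 0.083 with the other probe, an alternative chosen after seeing the data. It ranged from 1.27 to 2.93 when 1 array was left out, a step that cannot turn its sign, since the diets do not overlap at that probe. The median of the chosen genes ranged from 0.13 to 0.78, and that of the wider kidney list from 0.18 to 0.41, without 1 array. Of 77 values of the other 7 tested kidney genes under the alternatives, 8 had the opposite sign (Aqp2, Nphs1, Pax2 and Six2).

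Probes past the cutoffs numbered 118 higher and 219 lower. Normexp gave 16 and 44, a signal floor 40 and 125, no filter on dim probes 376 and 479, the methods' t-test 41 and 56, its Welch form 21 and 25, and 1 probe per gene 49 and 104. The filter on probes well above background gave 72 higher. With the replicate block there were 184 higher and 277 lower, with 0 after adjustment. Deviations from the diet mean were only weakly correlated between same-numbered arrays (r = -0.107 over 41614 probes). A crossed pairing, chosen after seeing the data, gave 184 higher and 272 lower, with 19 after adjustment. Without 1 array the counts ranged from 213 to 842 higher and from 427 to 531 lower. Without HFD replicate 1, 24 probes passed after adjustment, in a fit whose spread comes from the CD arrays alone, with the lone HFD array assumed to vary like them. The wider kidney list had 1 gene past the cutoffs, against 0 with normexp and with both forms of the t-test, 2 with no filter on dim probes, and 1 to 8 without 1 array. Irx1 turned to 0.34 without CD replicate 1 and 0.17 without HFD replicate 1 (range -1.17 to 0.34), and without CD replicate 1 Osr1 turned to 0.090 (range -0.64 to 0.090) and Synpo to 0.016 (range -0.57 to 0.016). The cause was not tested. Leaving out arrays for Cyp11a1, Nr5a1 and Slc22a6 was chosen after seeing the data. Slide and scan could not be used as a block, since there was 1 of each. Low signal limits Nphs1 and Pax8, and Umod was below what the arrays resolve.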
